A study of Mus musculus with 23 samples.

Results

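The cathepsin family was examined in retinal microglia through 10 genes, Ctsa, Ctsb, Ctsc, Ctsd, Ctsf, Ctsh, Ctsk, Ctsl, Ctss and Ctsz, of the 35825 genes in the table of normalized counts. The members were taken by gene symbol, not by their values, and all 10 were present. GFP+ microglia were sorted from mouse retinas and profiled by bulk RNA-seq in 23 libraries. CX3CR1-GFP mice, which carry GFP in one Cx3cr1 allele and are wild type for Spp1 (WT), were compared with Spp1 KO; CX3CR1-GFP mice (KO), which share the reporter and carry the null allele of the strain B6.129S6(Cg)-Spp1tm1Blh/J in every cell of the body; Spp1 encodes the secreted protein osteopontin. Retinas were naïve, at 4 weeks after elevation of intraocular pressure (IOP) by microbeads injected into the anterior chamber, or at 7 days after optic nerve crush (ONC). Each group had 4 libraries, except WT after ONC with 3, and each library came from retinas of more than a single mouse, combined before dissociation. Both sexes were used, and ages were not given in the sources used here.

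Cathepsins are proteases of the lysosome, the compartment in which microglia break down what they engulf and what autophagy delivers. Most are cysteine proteases, Ctsd encodes the main aspartic protease of the lysosome, and Ctsa encodes a serine carboxypeptidase that also shields neuraminidase and beta-galactosidase. They are made as inactive precursors, sorted to the lysosome largely by mannose 6-phosphate receptors, and matured by cleavage, and cystatins inhibit the cysteine members.

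By role, the aspartic member was Ctsd (chr7:142375911-142388038). The cysteine endopeptidases were Ctsb (chr14:63122462-63145923), Ctsl (chr13:64359337-64370890), Ctss (chr3:95526786-95556403), Ctsf (chr19:4855130-4860918) and Ctsk (chr3:95499256-95509362). The cysteine exopeptidases were Ctsc (chr7:88278085-88310888), Ctsh (chr9:90054152-90076089) and Ctsz (chr2:174427493-174439039), and the serine carboxypeptidase was Ctsa (chr2:164832873-164841032), with all positions on GRCm38. Each is annotated as protein-coding.

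The depth of the libraries was 22180480 to 30296094 reads on genes. Spp1, the targeted gene, went against the label in several libraries. As a percentage of the WT mean of the same condition, the 4 libraries labelled KO held 39.2, 5.94, 0.759 and 9.14% in naïve retinas, 1.15, 36.5, 0.418 and 34.3% after IOP elevation, and 26.6, 38.2, 0.0841 and 34.9% after ONC. KO below therefore means the libraries labelled KO, and values are also given for the 4 of these libraries that held less than 5% (naïve replicate 3, IOP replicates 1 and 3, ONC replicate 3). All 15 genes of a microglia list that included P2ry12, Tmem119, Sall1 and Cx3cr1 passed the filter for low values, and none was at 0 in every library. The list held 3.19 to 4.05% of normalized counts in WT naïve libraries, but 1.34, 1.67, 3.94 and 1.84% in the 4 KO naïve libraries and 2.12, 3.34, 3.57 and 2.35% in the 4 WT IOP libraries. A list of 15 rod photoreceptor genes ran the other way, with 3.35, 3.59, 1.26 and 3.98% in KO naïve against 1.60 to 1.96% in WT naïve libraries. None of its genes was at 0 in every library. KO naïve replicate 3 therefore stood apart from the other KO naïve libraries, and WT IOP replicates 1 and 4 from the other WT IOP libraries. The latter pair also held most lens transcripts, 0.992 and 1.07% against 0.210 and 0.146%. Cx3cr1, the gene that carries the reporter, was at 952 to 1233 normalized counts in KO IOP libraries and at 9417 to 67878 in the other groups. Whether all groups share the same Cx3cr1 alleles was not tested.

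Cathepsin transcripts were among the most abundant of the cells. In WT naïve libraries the 10 genes together held 2.92 to 3.52% of all normalized counts, and Ctsd had the highest mean of any gene in the table. Ctss ranked 7 and Ctsb ranked 15 among all genes in that group, and Ctsz, Ctsc, Ctsa, Ctsl, Ctsh and Ctsf lay between rank 52 and rank 218. Ctsk, the collagen-degrading cathepsin known from osteoclasts, was near the detection floor. Its highest value was 71.0 normalized counts, in KO naïve replicate 1, and the other 22 libraries held 0 to 21.1, where 3 reads correspond to 2.41 to 4.03 normalized counts. No fold change is given for Ctsk.

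Divided by the length of the principal transcript, the levels in WT naïve libraries fell in the order Ctsd, Ctss, Ctsz, Ctsb, Ctsc, Ctsh, Ctsa, Ctsf, Ctsl, Ctsk. Ctsd was at 161755 ± 22586 and Ctss at 140088 ± 14977 normalized counts per kilobase (SD, n = 4), with overlapping ranges. Ctsz (30573 ± 2254) and Ctsb (23255 ± 2499) followed without overlap of their libraries. Ctsc (14393 ± 1727) overlapped Ctsh (12015 ± 897), which in turn overlapped Ctsa (9704 ± 1143). Ctsf (6412 ± 260) and Ctsl (3296 ± 217) were lower, and their libraries did not overlap those of their neighbours. The first 4 places were the same in all 6 groups. After ONC, Ctsh moved ahead of Ctsc in both genotypes, and in KO libraries Ctsa did so too.

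**Figure D1:**
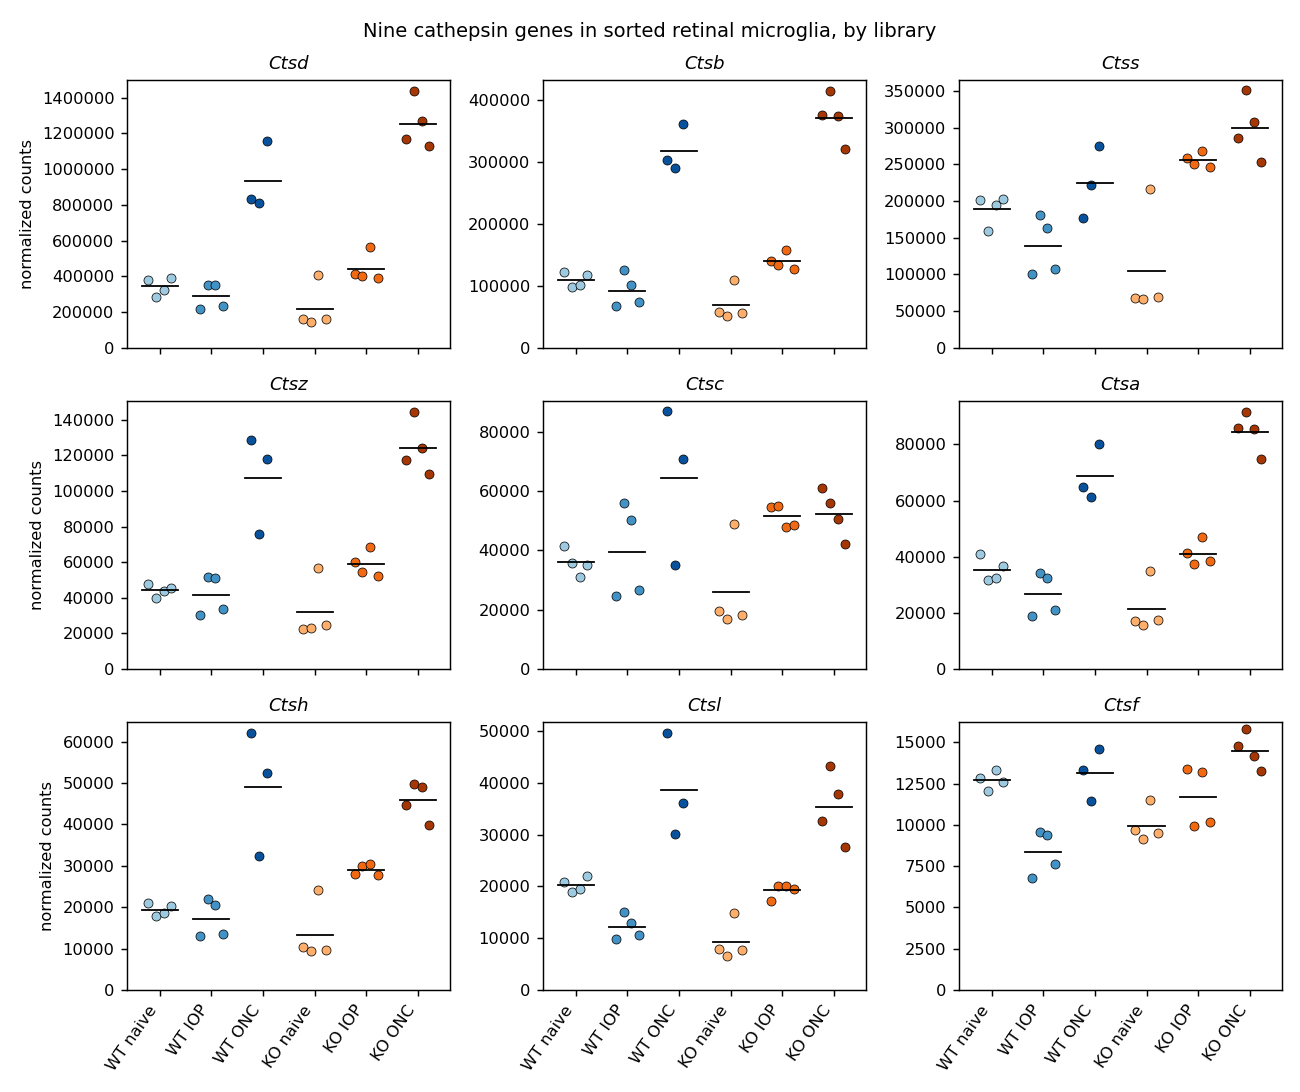
Normalized counts (y axis, linear from 0) of 9 cathepsin genes in each library (points) of the 6 groups (x axis), with bars at the group means; Ctsk is left out since it was near the floor. Ctsd, Ctsb, Ctsz, Ctsa and Ctsh were highest after ONC in both genotypes, and KO naïve replicate 3 lay above the other KO naïve libraries, for Ctsd at 406169 against 143868 to 159414.

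The sequence before the transcription start was examined because most members moved together. RefSeq windows (GRCm38.p6, 250 bases before to 50 after the start) were found for 8 members, 9 windows in all, and none for Ctsb and Ctsh. The 6 letters CACGTG, the core of the element read by TFEB and related lysosomal regulators, stood in the windows of 4 members (Ctsa, Ctsd, Ctsf and Ctsl) and in 7.15% of all 32851 windows. The longer palindrome TCACGTGA, which contains it, stood in 2 member windows (Ctsa and Ctsd) and in 0.974% of all. The letters GAGGAAGT, a form of the element of the myeloid factor PU.1, stood in the windows of Ctsc and Ctss and in 3.2% of all. Both strands were searched. Starts are those of RefSeq and can lie inside the gene bounds given above, which come from GENCODE. Of the stretches below, those of Ctsa, Ctsd and Ctsl lay inside these bounds. They overlapped annotated untranslated region, as did that of Ctss. Ctsa held a further CACGTG 5 bases after its start and Ctsd another 245 bases before its own. The other matches are shown 5′ to 3′ along each gene's own strand with the motif in capitals, and they describe letters only, not binding.
Ctsd, chr7:142387908-142387937, minus strand, motif 98 bases before the start: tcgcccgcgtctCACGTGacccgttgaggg
Ctsa, chr2:164833749-164833778, plus strand, motif 12 bases before the start: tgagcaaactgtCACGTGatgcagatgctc
Ctsf, chr19:4855074-4855103, plus strand, motif 79 bases before the start: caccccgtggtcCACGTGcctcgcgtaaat
Ctsl, chr13:64370739-64370768, minus strand, motif 236 bases before the start: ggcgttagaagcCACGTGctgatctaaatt
Ctss, chr3:95526773-95526802, plus strand, GAGGAAGT on the opposite strand, 2 bases before the start: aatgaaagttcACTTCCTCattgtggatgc
Ctsc, chr7:88277923-88277952, plus strand, GAGGAAGT on the opposite strand, 151 bases before the start: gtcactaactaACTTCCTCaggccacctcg
The windows of Ctsd and Ctsf, which share CACGTG, belonged to genes with different courses after ONC, as given next. Ctss and Ctsk are neighbours on chromosome 3 with 17423 bases between them, yet the former was among the most abundant transcripts and the latter near the floor.

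After ONC, 6 of the 10 members were called higher in WT microglia against WT naïve libraries, and none lower. A call needed an adjusted p under 0.05 and a log2 change above 0.58 in size (limma). Of all 17102 genes tested, 7.55% were called higher. The 6 were Ctsd, Ctsb, Ctsl, Ctsh, Ctsz and Ctsa, and the median log2 change of the 10 members was 0.93 against -0.10 for all genes tested. With quantile scaling 4 members were called, and 2667 genes in all against 3093. In sorted bulk RNA, more microglia in the sorted material and more cathepsin RNA per cell cannot be told apart from these values alone.

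Ctsd, the aspartic member, stood at 379497, 286608, 322451 and 387654 normalized counts in the 4 WT naïve libraries and at 832116, 809686 and 1158975 in the 3 WT ONC libraries. Every ONC library lay above every naïve library. The log2 change was 1.43 ± 0.36 (SE), which is 2.70-fold, with an adjusted p of 0.0087 (limma).

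Ctsb, a cysteine protease with both endopeptidase and dipeptidyl carboxypeptidase activity, stood at 122408, 98878, 101462 and 118451 in WT naïve and at 303278, 290671 and 361603 in WT ONC libraries. The groups were well apart. Its log2 change of 1.53 ± 0.27 (2.89-fold, adjusted p = 4.8e-04, limma) was the largest of the members.

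Ctsl, an endopeptidase, rose by 0.90 ± 0.23, from 18980 to 21987 in naïve libraries to 49606, 30083 and 36094. The aminopeptidase Ctsh rose by 1.29 ± 0.28, with naïve libraries at 17899 to 20974 and ONC libraries at 62121, 32430 and 52513. Both genes were lowest in WT ONC replicate 2, without overlap with the naïve group. Ctsz, a carboxypeptidase also called cathepsin X, rose by 1.25 ± 0.28 (39705 to 47437 against 128420, 75785 and 118074). Ctsa rose by 0.96 ± 0.25 (31720 to 40767 against 64856, 61185 and 80150). The 4 adjusted p-values lay between 0.0026 and 0.011 (limma).

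Ctss did not pass the test. This elastinolytic protease, which trims the invariant chain in antigen-presenting cells, stood at 201875, 159809, 195035 and 202559 in WT naïve and at 176975, 221607 and 275043 in WT ONC libraries. The groups overlapped, and the log2 change was 0.23 with a 95% interval of -0.49 to 0.94 (adjusted p = 0.68, limma). Ctsc, the dipeptidyl peptidase that activates granule serine proteases, held 31122 to 41576 in naïve and 86907, 35008 and 70809 in ONC libraries and also overlapped. Ctsf was at 12064 to 13305 in naïve and 13337, 11430 and 14573 in ONC libraries. The microglia list was at a like share in both groups (3.19 to 4.05% naïve, 2.81 to 3.95% ONC), and with its mean as a covariate the same number of 6 members was called. A list of 12 border macrophage and monocyte genes, of which 11 passed the filter and none was at 0 in every library, was at 0.0692 to 0.1498% in naïve and 0.0112 to 0.0260% in ONC libraries, and its part in the values was not tested. Rod transcripts were lower in 2 of the 3 ONC libraries (0.543, 2.05 and 0.651%), and with their mean as a covariate 5 were called, with Ctsl at a log2 change of 0.51, under the fold threshold.

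In KO libraries the rise after ONC covered 8 members, all but Ctsf and Ctsk, where 12.7% of all genes were called higher. The median log2 change was 1.94 over the 10 members and -0.12 over all genes. Ctsd stood at 159344, 143868, 406169 and 159414 in KO naïve and at 1169134, 1435597, 1269714 and 1131715 in KO ONC libraries, without overlap. Its log2 change was 2.67 ± 0.33 (6.35-fold, adjusted p = 1.5e-05, limma).

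Ctsb rose by 2.51 ± 0.25 (5.70-fold, adjusted p = 2.3e-06, limma), from 57785, 50647, 109697 and 55660 to 376483, 415332, 375523 and 321711. The ONC libraries lay together, and naïve replicate 3 was the highest of the naïve ones. Ctsa (2.08), Ctsz (2.07), Ctsl (1.98) and Ctsh (1.90) followed on the log2 scale, all without overlap. Ctss rose by 1.71 ± 0.32, from 68341, 66777, 216348 and 69804 to 285554, 351396, 308067 and 252857. Ctsc rose by 1.15 ± 0.32, and naïve replicate 3 at 48785 lay within its ONC range of 42194 to 60924. Ctsf was at 9128 to 11500 in naïve and at 13249 to 15785 in ONC libraries, without overlap, with an adjusted p of 0.0079 (limma) but a change under the fold threshold.

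The size of these KO changes moved with the KO naïve baseline. With the microglia mean as a covariate, 6 members were called and the log2 change was 1.72 for Ctsd, 0.71 for Ctss (adjusted p = 0.11, limma) and -0.085 for Ctsc. With the rod mean as a covariate 6 were called as well, and Ctsd was at 1.90. Over all genes 428 were called with the microglia covariate and 472 with the rod covariate, against 4043. In the libraries labelled KO that held little Spp1, 1 naïve against 1 ONC library, no member was called by limma, and 5 genes were in all against 4043 with all libraries, the lone libraries being assumed to vary like the other groups. There Ctsd still differed by 1.64 and Ctsb by 1.77 on the log2 scale, and Ctss by 0.51. Without KO naïve replicate 3, Ctsd differed by 3.02 and 9 members were called, and the count over all genes is not given here to set beside it.

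**Figure D2:**
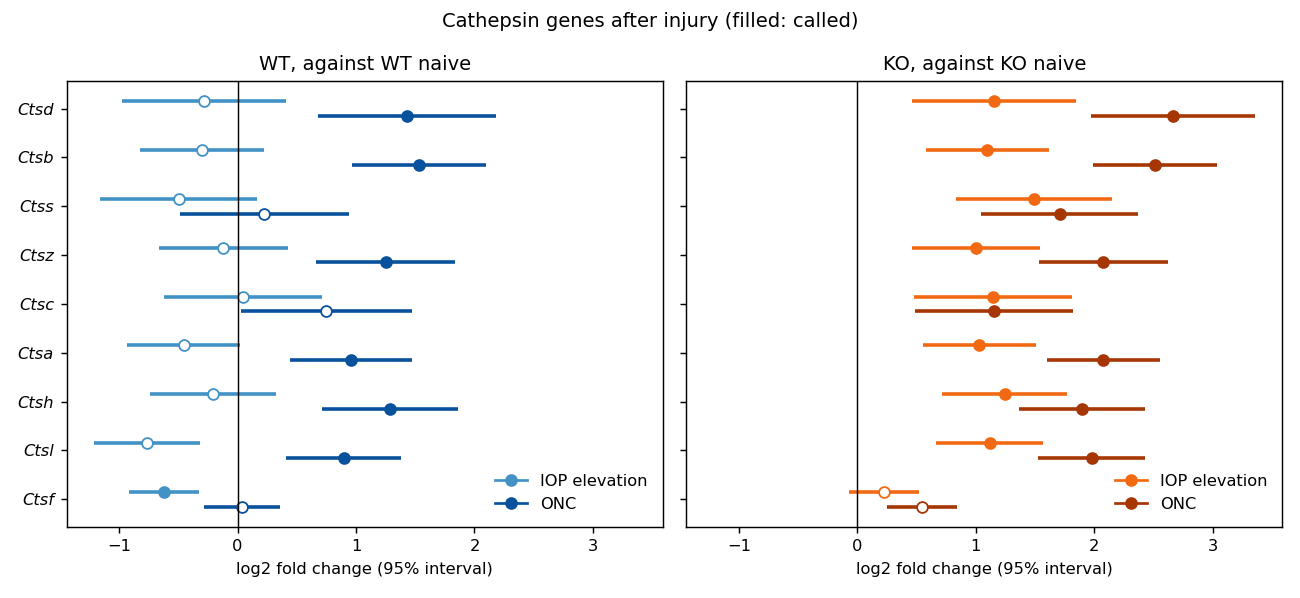
Log2 fold change (x axis) with 95% interval for 9 cathepsin genes (y axis) after IOP elevation and ONC, for WT (left) and KO (right) libraries against naïve libraries of the same genotype; filled points were called. In WT libraries IOP elevation gave values at or below 0.05 and ONC up to 1.53, while in KO libraries 8 genes were called after both injuries.

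After IOP elevation no member was called higher in WT libraries. Ctsf alone was called lower, where 0.719% of all genes were called lower. Ctsf, a cysteine protease with a long cystatin-like propeptide, stood at 12810, 12064, 13305 and 12603 in naïve and at 6806, 9549, 9379 and 7624 in IOP libraries. All IOP libraries lay below all naïve ones, with a log2 change of -0.62 ± 0.14 (0.65-fold, adjusted p = 0.028, limma). The call was lost when any one of the 4 naïve libraries or IOP replicate 1 or 4 was left out, and without both IOP replicates no member was called, with 15 genes called in all against 267.

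Ctsl also lay lower in every WT IOP library (9765, 15111, 12890 and 10699) than in every naïve one, but its adjusted p was 0.086 (limma). Ctsd stood at 215626, 349095, 349772 and 236131 and Ctsb at 67375, 126170, 101228 and 73374. In both genes IOP replicates 1 and 4 were low and replicates 2 and 3 were within or above the naïve range. These low libraries are those with fewer microglial and more rod and lens transcripts, whose part in the values was not tested. Mitochondrially encoded transcripts were higher in all 4 WT IOP libraries (10.6, 6.70, 6.64 and 11.2%) than in WT naïve libraries (3.74 to 4.87%), and their part was not tested either. The log2 changes were -0.28 (95% interval -0.98 to 0.41) for Ctsd, -0.30 (-0.82 to 0.22) for Ctsb and -0.50 (-1.16 to 0.16) for Ctss. Without the pair they were 0.033, 0.041 and -0.14. Ctsc stood at 24562, 55925, 50094 and 26765, against 31122 to 41576 in naïve libraries. Ctsz stood at 30274, 51682, 51202 and 33524, against 39705 to 47437. For both genes, replicates 2 and 3 lay above the naïve range and replicates 1 and 4 below it. Their log2 changes were 0.046 (95% interval -0.62 to 0.71) and -0.12 (-0.66 to 0.42).

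In KO libraries, IOP elevation was followed by 8 members called higher and none lower, where 5.06% of all genes were called higher. Ctss had the largest log2 change, 1.49 ± 0.32 (2.81-fold, adjusted p = 0.015, limma), from 68341, 66777, 216348 and 69804 to 258615, 251275, 268476 and 245961. The 4 IOP libraries lay close together and above all naïve ones. Ctsd (1.15) rose from the same naïve values given above to 413838, 399964, 563267 and 389174, with overlap through naïve replicate 3. Ctsb, Ctsc, Ctsh, Ctsl, Ctsz and Ctsa rose by 1.00 to 1.24 on the log2 scale. Ctsf, at 9128 to 11500 in naïve and 9911 to 13391 in IOP libraries, was not called.

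These calls rested on the KO naïve libraries. No member was called without naïve replicate 2, 1 without replicate 4 and 2 without replicate 1, nor was any called in the libraries that held little Spp1, where Ctsd differed by 0.25 and Ctss by 0.28. The microglia list was at 3.22 to 4.02% in KO IOP libraries against 1.34 to 1.84% in 3 of the 4 KO naïve ones, and with its mean as a covariate 2 members were called. With the rod mean as a covariate, or with the compared groups fitted alone, none was. Calls were lost across all genes in these fits: of 1347 genes called in all, the microglia covariate left 48, the rod covariate 4 and the compared groups alone 5. By edgeR 6 members and 559 genes in all were called, and by DESeq2 8 members and 1901 genes. KO IOP libraries also differed from KO naïve ones in Cx3cr1 (952 to 1233 against 9417 to 26283 normalized counts), in Ddx3y, a gene of the Y chromosome (3.05 or less against 28.1 to 1713), and in a list of 8 retinal pigment epithelium genes (0.00116 to 0.0178% against 0.228, 0.0823, 0.00417 and 0.0842%). Their part in the cathepsin values was not tested. Cx3cr1 belongs to the microglia list, so its difference also enters the microglia covariate.

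KO and WT libraries were next compared within each condition, to ask whether Spp1 status went with cathepsin level. In naïve retinas 9 of 10 members lay lower in KO by their log2 change, with a median of -0.71 against 0.03 for all genes, but only Ctsl was called, where 0.339% of all genes were called lower. Ctsl was at 20790, 18980, 19568 and 21987 in WT and at 7940, 6627, 14868 and 7810 in KO libraries, without overlap. Its log2 difference was -1.20 ± 0.22 (0.44-fold, adjusted p = 0.016, limma). The call was lost when any one of WT naïve replicates 1, 3 and 4 or KO naïve replicates 1, 2 and 4 was left out. It was also lost with the compared groups fitted alone, where 14 genes were called in all. For Ctsd the difference was -0.80 (-1.49 to -0.11), for Ctsb -0.76 (-1.28 to -0.23) and for Ctss -1.05 (-1.71 to -0.39), with adjusted p-values of 0.25, 0.14 and 0.10 (limma). Replicate 3 decided these values. Without it 8 members were called lower, and the count over all genes is not given here to set beside this. With it as the only KO naïve library, the one with little Spp1, Ctsd differed by 0.25. With the microglia mean as a covariate the Ctsl difference was -0.57 and no member was called, with 24 genes called in all against 70. With the rod mean as a covariate 1 member was called, with 58 genes in all. KO naïve libraries also differed in Cx3cr1 (9417 to 26283 against 44957 to 67878 normalized counts in WT). The pigment epithelium list was at 0.228, 0.0823, 0.00417 and 0.0842% against 0.00273 to 0.00453% in WT. The part of these differences was not tested.

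After IOP elevation the direction was the opposite, with 9 of 10 members higher in KO, but none was called by limma, edgeR or DESeq2, where 2.11% of all genes were called in either direction. An unadjusted p under 0.05 was reached by 6 members and by 3602 of all 17102 genes. Ctss stood at 101062, 181052, 163238 and 107601 in WT and at 258615, 251275, 268476 and 245961 in KO libraries. The groups did not overlap, and the log2 difference was 0.93 (95% interval 0.27 to 1.60, adjusted p = 0.11, limma). Ctsd (0.64, interval -0.06 to 1.33) and Ctsb (0.64, interval 0.12 to 1.16) also stood higher in KO without overlap. Among the libraries with little Spp1 the differences were 0.98 for Ctss, 0.78 for Ctsd and 0.74 for Ctsb. Without WT IOP replicates 1 and 4 the differences were 0.57, 0.32 and 0.30, and with the rod mean as a covariate 0.49, 0.17 and 0.29, in the same order. With the microglia mean as a covariate 2 members were called higher, Ctss among them at 0.80 (adjusted p = 0.0073, limma). In that fit 763 genes were called in all, against 360. The KO IOP libraries also held Cx3cr1 at 952 to 1233 normalized counts against 26836 to 54612 in WT IOP libraries, and Ddx3y at 3.05 or less against 633 or more. The part of these differences in the cathepsin values was not tested. Cx3cr1 belongs to the microglia list, so its difference enters the microglia covariate and the calls made with it.

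After ONC no member was called between genotypes by limma, edgeR or DESeq2, and none reached an unadjusted p under 0.05 against 1601 of all genes, where 0.0877% of all genes were called in either direction. The log2 differences were 0.44 (-0.31 to 1.18) for Ctsd, 0.23 (-0.34 to 0.79) for Ctsb and 0.43 (-0.29 to 1.14) for Ctss, so that differences of more than 2-fold remained inside the intervals of Ctsd and Ctss. In KO ONC replicate 3, which held little Spp1, these genes were at 1269714, 375523 and 308067 normalized counts. WT ONC libraries held 809686 to 1158975, 290671 to 361603 and 176975 to 275043. Ddx3y was at 1369 to 1717 in KO ONC and 3.51 to 1797 (median 9.21) in WT ONC libraries, and its part was not tested.

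**Figure D3:**
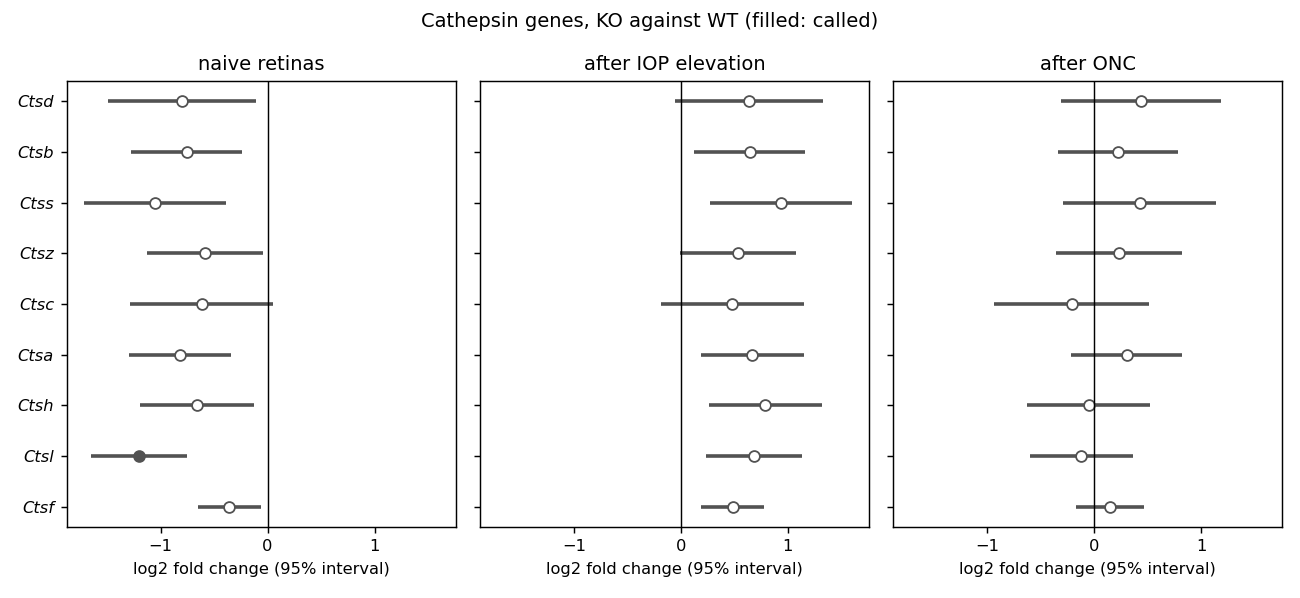
Log2 difference between KO and WT libraries (x axis, 95% interval) for 9 cathepsin genes (y axis) in naïve retinas, after IOP elevation and after ONC; the filled point was called. Values lay below 0 in naïve retinas, above 0 after IOP elevation and around 0 after ONC, with Ctsl in naïve retinas at -1.20 the only call.

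The interaction asks whether the change from naïve to injured differed between genotypes, and it uses the same naïve libraries as the comparisons above. For IOP elevation 6 members were called with a more positive change in KO, where 4.85% of all genes were called in that direction. They were Ctss (1.99 ± 0.45), Ctsl (1.88 ± 0.31), Ctsa (1.49 ± 0.33), Ctsh (1.45 ± 0.36), Ctsb (1.40 ± 0.36) and Ctsf (0.84 ± 0.20), with adjusted p-values from 0.0019 to 0.020 (limma). Ctsd had a difference of 1.44 with an adjusted p of 0.060 (limma). For Ctsf the log2 change was -0.62 in WT and 0.22 in KO, so that its change was larger in size in WT. With the microglia or the rod mean as a covariate 1 remained called, Ctsl at 1.14 and 1.21, and without WT IOP replicates 1 and 4 also 1. No member was called among the libraries with little Spp1, where Ctsl differed by 1.09 and Ctss by 0.78. Over all genes the 1496 calls fell to 161 with the microglia covariate, 147 with the rod covariate, 62 without the pair of WT IOP libraries and 3 among the libraries with little Spp1. The differences of KO IOP libraries in Cx3cr1 and Ddx3y enter this interaction too. For ONC no interaction was called by limma, edgeR or DESeq2, where 0.0702% of all genes were called in either direction, although 7 members, and 2125 of all genes, reached an unadjusted p under 0.05. Ctsd differed by 1.24, Ctsb by 0.98 and Ctss by 1.48. Without KO naïve replicate 3, 6 members were called, and the count over all genes is not given here to set beside it. Among the libraries with little Spp1 the values were 0.21, 0.25 and 0.28, and with the microglia mean as a covariate 0.50, 0.40 and 0.71, in the same order.

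As a share of the library the family grew most after ONC. The 10 genes held 3.22 ± 0.29% of normalized counts in WT naïve, 2.67 ± 0.61% in WT IOP and 5.84 ± 1.08% in WT ONC libraries (SD; n = 4, 4 and 3). In KO the shares were 2.13 ± 0.93% naïve, 3.95 ± 0.33% after IOP elevation and 7.66 ± 0.45% after ONC (n = 4 each). The KO naïve libraries were at 1.60, 1.64, 3.51 and 1.75%. Ctsd alone held 3.87 to 4.56% of each KO ONC library and was the most abundant gene in all 7 ONC libraries. Normalized totals were 37006393, 25524043 and 32229821 in WT ONC libraries and 24001958 to 25854185 in WT naïve ones, so changes in share and in counts differed. From WT naïve to WT ONC the mean share fell for Ctss (0.753 to 0.733%) and Ctsf (0.0504 to 0.0420%). It rose for the other members except Ctsk, for Ctsl from 0.0808 to 0.121%.

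**Figure D4:**
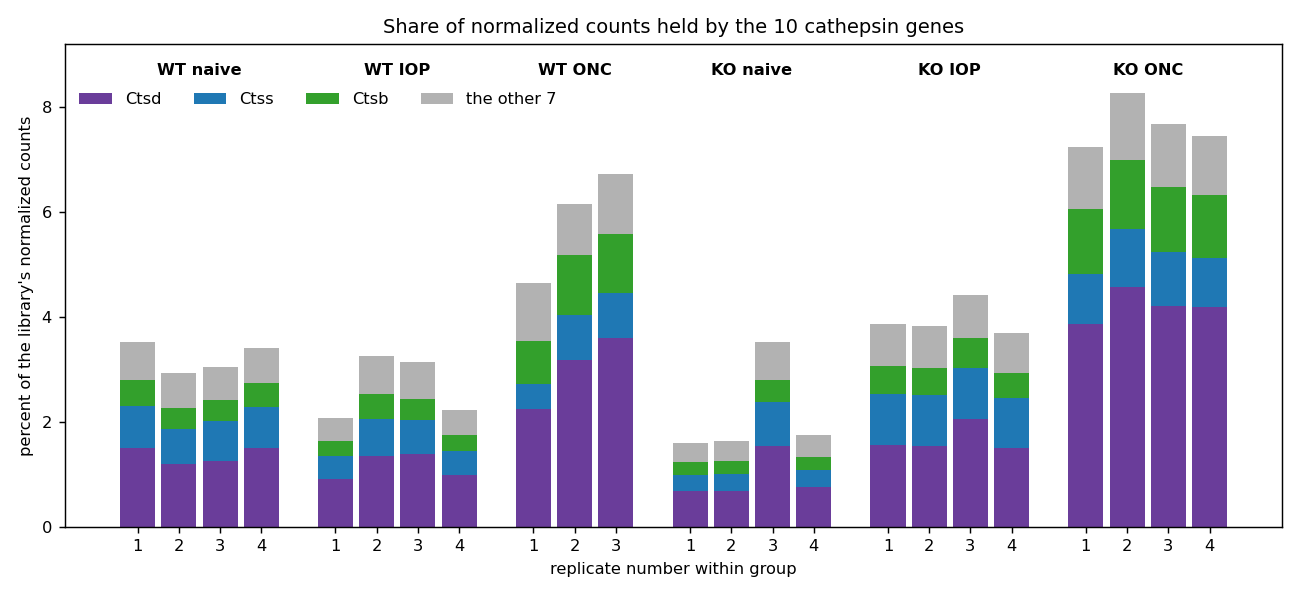
Percent of each library's normalized counts (y axis, from 0) held by the 10 cathepsin genes, stacked as Ctsd, Ctss, Ctsb and the other 7, for each replicate (x axis) of the 6 groups. The ONC libraries reached 4.64 to 8.27%, against 1.60 to 3.52% in naïve libraries of both genotypes.

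The ratio of members within a library does not depend on how much of the library is microglial where both genes come from the same cells. Ctsd was 1.65 to 1.91 times Ctss in WT naïve and 1.88 to 2.33 times in KO naïve libraries, but 3.65 to 4.70 times in WT ONC and 4.09 to 4.48 times in KO ONC libraries. After IOP elevation it was 1.93 to 2.19 in WT, and in KO 1.60, 1.59, 2.10 and 1.58. The ONC libraries thus lay apart from all others in both genotypes, including KO naïve replicate 3 at 1.88. The pair was chosen after its values were seen, so no test is given.

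Set against the summed microglia list, the 10 members stood at 0.834 to 0.956 in WT naïve and 0.878 to 0.978 in WT IOP libraries. WT ONC libraries were at 1.18, 2.19 and 1.70, above both. In KO, naïve libraries were at 1.20, 0.980, 0.892 and 0.952, IOP libraries at 1.03, 1.16, 1.10 and 1.15, and ONC libraries at 2.06, 2.16, 2.13 and 2.34. On this scale KO IOP overlapped KO naïve, and KO ONC did not. The list includes Cx3cr1, which was lowest in KO IOP libraries (952 to 1233 normalized counts), and a list without it was not used. Ctsd moved from 0.346 to 0.421 of the list in WT naïve to 0.573, 1.13 and 0.911 in WT ONC, and Ctss in KO from 0.178 to 0.220 in naïve to 0.243 to 0.294 in IOP libraries. In WT IOP libraries Ctsc (0.0478 to 0.0646 against 0.0333 to 0.0466 naïve) and Ctsz (0.0568 to 0.0607 against 0.0465 to 0.0519) were higher without overlap. Ctsl was lower without overlap (0.0143 to 0.0196 against 0.0204 to 0.0248), and the other members overlapped.

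**Figure D5:**
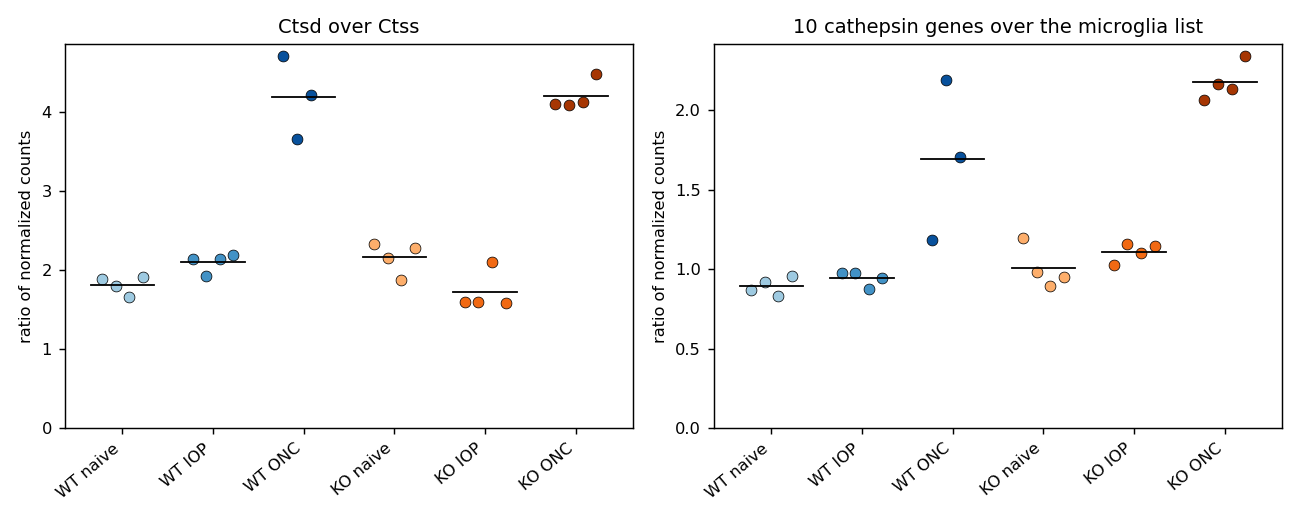
Ratio of normalized counts (y axis, from 0) within each library (points) for Ctsd over Ctss (left) and for the 10 cathepsin genes over the 15 genes of the microglia list (right), by group (x axis), with bars at the means. The Ctsd to Ctss ratio was 3.65 to 4.70 in ONC libraries and 1.58 to 2.33 in all others.

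Over the 23 libraries the members rose and fell together. Among the 9 genes without Ctsk, the median Pearson r of log2 normalized counts over the 36 pairs was 0.862 (0.601 to 0.992), and 0.858 for deviations from group means. Ctsb and Ctsd were the closest pair (r = 0.992), Ctsa and Ctsz were also most like Ctsd, Ctsc was most like Ctsh, and Ctsf and Ctss were most like Ctsa. The genes outside the family closest to its summed level were Hexa (r = 0.988), a beta-hexosaminidase subunit, Npc2 (0.984), a lysosomal cholesterol carrier, Grn (0.984), the precursor of granulins, Sdf4 (0.983) and Ly6e (0.980). The median over the other genes tested was -0.126. These libraries share the composition described above: the summed members had r = 0.832 with the microglia list and -0.888 with the rod list.

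Of 13 other cathepsin genes, 3 passed the filter for low values. Ctse, an aspartic protease, was at 57.8 to 617 normalized counts, below every member but Ctsk. It rose in KO from 107 ± 79 in naïve to 434 ± 139 after IOP elevation (log2 change 2.17 ± 0.47, adjusted p = 0.016, limma) and to 552 ± 76 after ONC (2.58 ± 0.47, adjusted p = 4.9e-04, limma; SD, n = 4). Ctso (2111 to 6312 over all libraries) and Ctsw, a lymphocyte cathepsin, were called in no comparison by limma. The other 10, mostly placental cathepsins, were at 8.57 normalized counts or less in every library.

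Genes that inhibit, sort or mature cathepsins were followed as lists beside the members. Of 8 tested inhibitors, 2 were called higher in WT and the same number in KO after ONC, and none lower. Over all genes 7.55 and 12.7% were called higher. The median log2 change of the inhibitors was 0.065 in WT and 0.21 in KO, with 4 of the 8 lower in each. Cst7, cystatin F, which inhibits cysteine cathepsins inside the endolysosome, rose from a mean of 329 to 5654 in WT (log2 change 4.12 ± 0.30, adjusted p = 5.2e-08, limma) and from 202 to 7260 in KO (5.19 ± 0.27, adjusted p = 1.1e-10, limma). Cstb, the cytosolic cystatin B, rose by 1.55 in WT and 1.52 in KO. After IOP elevation Cst7 was at 300 in WT and 1043 in KO libraries, a log2 difference of 1.90 ± 0.27 (adjusted p = 4.6e-04, limma), whereas no cathepsin was called there.

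Among 14 transport and activation genes, 2 were called higher in WT after ONC, 6 in KO after IOP elevation and 10 in KO after ONC, and none lower, where the shares over all genes were 7.55, 5.06 and 12.7%. Of the KO IOP calls few can remain with the rod covariate or the compared groups alone, which called 4 and 5 genes in all. In WT they were Gnptab, which makes the mannose 6-phosphate tag (2.89 on the log2 scale), and Tfeb, a transcription factor of lysosomal genes (1.43). In KO after ONC Gnptab rose by 2.26, Glb1, the beta-galactosidase bound by the Ctsa product, by 1.94, Psap, the precursor of the saposins, by 1.80 and Lgmn, the legumain that cleaves several cathepsin precursors, by 1.40. After IOP elevation in WT the only call was Cd74, the invariant chain that the Ctss product trims, which rose by 2.22 (adjusted p = 0.048, limma).

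Of 30 other lysosomal hydrolases and cofactors, 12 were called higher and 1 lower in WT after ONC, 24 and 1 in KO after ONC, and 10 and none in KO after IOP elevation, beside the same shares of all genes called higher. The limit on the KO IOP calls holds here too. In WT after IOP elevation none was called by limma, with 3 at an unadjusted p under 0.05. The median log2 changes were 0.58, 1.21, 0.74 and -0.23 in the same order, each nearer to 0 than the cathepsin median of the same comparison (0.93, 1.94, 1.11 and -0.29). Examples in KO after ONC were Npc2 (2.11), Gusb (1.99), Dnase2a (1.93) and Galns (1.88), and in WT after ONC Gla (1.92), Scpep1 (1.35), Galns (1.07) and Fuca1 (0.98).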

How the data were processed

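RNA of FACS-sorted GFP+ retinal microglia was sequenced from SMARTer libraries. The authors deposited 1 table of normalized counts, a depth-scaled signal per gene. The labels name STAR, DESeq2 and GRCm38, and the methods of the study name salmon; versions and strand setting were not given in the sources used here, so antisense overlap was not separated. All values of the 23 libraries were whole multiples of 1 read (tolerance 0.001 reads), which gave 22180480 to 30296094 reads on genes. Gene symbols, lengths and coordinates came from GENCODE M21 (GRCm38), where 34732 of 35825 identifiers matched with their version and 704 without it. Groups came from the labels.

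The 10 members and all gene lists were chosen with earlier results of these data known. Genes with at least 10 normalized counts in at least 3 libraries (17102) were tested with limma 3.58.1 on log2(normalized count + 1), with 6 groups in 1 fit. Fold changes are on that scale. Calls needed a Benjamini-Hochberg adjusted p under 0.05 over all genes tested and a log2 change above 0.58 in size. Named genes were the members, the other cathepsins that passed the filter, and at most 4 called genes per list and comparison by adjusted p. The tests were checked on simulated data. p-values measure the spread between pooled libraries. Alternatives were pseudocount 5, no filter, upper-quartile and quantile scaling, a rod covariate, a replicate block, compared groups alone, edgeR 4.0.16 and DESeq2 1.42.0 on the recovered reads, and each library left out. A microglia covariate, the ratio to the microglia list, and leaving out WT IOP replicates 1 and 4 or KO libraries with Spp1 above 5% of the WT mean were chosen after seeing the data. All counting covers whole reads, and PCR copies were not separable.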

Additional observations from a re-analysis of the deposited data

Results flagged for a closer look

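In groups of 4 libraries, a highest or lowest value far from the other 3 was found for 11 gene and group pairs and for the summed share, where chance marks about 1 in 20 groups. Of these, 9 and the summed share (3.51%) were in KO naïve libraries, and in all but Ctsk the library was replicate 3, at 34722 normalized counts for Ctsa, 109697 for Ctsb, 48785 for Ctsc, 406169 for Ctsd, 24124 for Ctsh, 14868 for Ctsl, 216348 for Ctss and 56606 for Ctsz. For Ctsk it was replicate 1 at 71.0. The remaining values were Ctsd at 563267 in KO IOP replicate 3 and Ctsk at 12.03 in KO ONC replicate 4. The members are not independent (median r = 0.862 over 36 pairs without Ctsk). A single unusual library is thus counted for many genes, and the rate of 1 in 20 cannot be set against the count.

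For IOP elevation the interaction term of limma was called for Ctsa (1.49 on the log2 scale), Ctsb (1.40), Ctsf (0.84), Ctsh (1.45), Ctsl (1.88) and Ctss (1.99). Each had a more positive change in libraries labelled KO, where 4.85% of all genes were called in that direction. For Ctsf the change was -0.62 in WT and 0.22 in KO libraries. With the rod or the microglia covariate 1 member was called, and also 1 without WT IOP replicates 1 and 4. KO IOP libraries also differed in Cx3cr1 and Ddx3y, whose part was not tested.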

How the results depend on the processing

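For the change after ONC, leaving out single libraries gave 5 to 7 in WT and 7 to 9 in KO, beside 6 and 8 members called. The same range was 0 to 1 for WT IOP, 0 to 8 for KO IOP, 0 to 8 for KO against WT in naïve retinas, 4 to 9 for the IOP interaction and 0 to 6 for the ONC interaction, beside 1, 8, 1, 6 and 0. It was 0 in each case for KO against WT after either injury. For WT ONC quantile scaling gave 4, and the rod covariate and the compared groups alone gave 5 each. For WT IOP, upper-quartile scaling, the rod covariate, the microglia covariate and leaving out WT IOP replicates 1 and 4 gave 0 calls, and DESeq2 and the compared groups alone gave 2. For KO IOP, the rod covariate, the compared groups alone and the libraries with little Spp1 gave 0, and the microglia covariate 2. For KO ONC the libraries with little Spp1 gave 0. For KO against WT in naïve retinas, quantile scaling and DESeq2 gave 2, and the microglia covariate, the compared groups alone and the libraries with little Spp1 gave 0. For KO against WT after IOP elevation the microglia covariate gave 2. For the IOP interaction the rod covariate, the microglia covariate and leaving out WT IOP replicates 1 and 4 gave 1 each, and the libraries with little Spp1 gave 0. For the ONC interaction quantile scaling gave 1. The cause of these moves was not tested.

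Reversed log2 changes were, in WT IOP, Ctsb at 0.041 and Ctsd at 0.033 without WT IOP replicates 1 and 4, and Ctsd at 0.026 with the microglia covariate. In WT ONC, Ctss was at -0.10 with quantile scaling and -0.20 with the rod covariate. In KO ONC, Ctsc was at -0.085 with the microglia covariate. In KO against WT in naïve retinas, Ctsd was at 0.25 and Ctss at 0.20 among the libraries with little Spp1. Of the other fold changes under alternatives, 805 kept direction and side of the threshold, 136 lost the call and 14 gained it. Quantile scaling moved the median over all genes by up to 0.12. With a replicate block, ONC gave 6 calls in WT and 8 in KO, IOP elevation 1 in WT and 8 in KO, the IOP interaction 8, KO against WT in naïve retinas 1, and the other 3 comparisons 0. The numbers did not pair the libraries (median r of same-numbered libraries 0.0046, range -0.253 to 0.230, and 6 of 23 libraries closest to their own number). Groups held 3 or 4 pooled libraries, and the KO naïve libraries ranged from 1.60 to 3.51% in the summed share. Depth did not limit the members other than Ctsk.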
